A study of Mus musculus with 4 samples.

Results

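Kinesins are motor proteins that walk along microtubules or take them apart at their ends, and the genes named Kif and Kifc encode nearly all of them in the mouse. One set builds and moves the mitotic spindle and divides the cell. Another set hauls vesicles, mitochondria and other cargo through the cytoplasm of cells that need not divide. Messages of most spindle motors are known to accumulate toward mitosis and to be scarce in resting cells, while transport motors are made throughout.

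The kinesin genes were the rows of the deposited table of TPM (a transcript's share of the library after division by gene length) whose symbol starts with Kif or Kifc followed by a digit, which gave 47 of 32230 symbols. By known protein roles, 13 were classed as mitotic, 16 as transport and 14 as other (cilia, signalling, microtubule dynamics or several roles). The remaining 4 were an antisense gene or pseudogenes. These classes were set with earlier results of these data known. Mouse embryonic fibroblasts came from male homozygous 4F2A embryos at mid-gestation, and the 4F2A alleles carry the reprogramming factors Oct4, Sox2, Klf4 and Myc under doxycycline control. Both groups had doxycycline at 2 µg/mL for 48 h and RNA was taken on day 2, so the controls were reprogramming cells too. For 1 h on day 0 the cells received DMSO, the vehicle (2 libraries), or CX-5461, an inhibitor of RNA polymerase I (2 libraries). The concentration of CX-5461 is not given in the sources used here. The labels number the libraries replicates 2 and 3 in each group and do not say that they were separate cultures, so the p-values cover only how far these libraries spread, and that spread may be technical. The labels call the cells fibroblasts, and of 10 fibroblast markers all were measured, with summed levels of 11660 to 13850 TPM in the DMSO libraries and 10780 to 11070 TPM in the CX-5461 libraries.

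Fragments (read pairs) recovered from the TPM values came to 35.4 to 37.7 M (M, 1e6) per library. DMSO replicate 3 stood apart in composition, with 15.3% of TPM from mitochondrially encoded genes against 9.20% to 9.96% in the other libraries. Calls of named kinesins and of named members of the partner lists that end without it are given as such. For cell type markers such calls are given by count. Levels are quoted for replicates 2 and 3 in that order. Each difference is the CX-5461 mean less the DMSO mean of log2(TPM + 1), a scale that shrinks changes of low genes. Its adjusted p is limma's over the 14621 genes whose mean reached 1 TPM. Of those genes, 8.21% were called lower, 11.6% higher and 19.8% in either direction at an adjusted p under 0.05. The excess of higher calls depended on scaling, with 1620 to 1638 higher and 1646 to 1681 lower calls under the 3 other scalings run. On data simulated with the same setting of replicate spread for every gene, this test let through more false calls than the threshold promises. Real genes need not share that setting, so the rate of false calls in these data is not known. Calls near the threshold should be read as less certain than their adjusted p.

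The comparison asked how kinesin transcripts stood on day 2 after brief exposure to CX-5461. Of the 35 kinesins tested, 13 were called (12 lower and 1 higher), against 19.8% of all genes tested. Of the 13 mitotic kinesins, all were tested and 11 were called lower, against 8.21% of all genes tested, and none was called higher (none at an unadjusted p under 0.05 in limma, and none with voom on recovered reads). The median log2 difference of the mitotic class was -2.60, against 0.07 over all genes tested. At an adjusted p under 0.01, 11 were still lower. With each library left out in turn, 9 of the 11 held throughout, the exceptions being Kif18a and Kif18b. Kifc1 and Kifc5b were the mitotic kinesins not called. Of the 16 transport kinesins, 14 were tested and none was called in either direction. Their median difference was 0.21 and their range -0.21 to 0.46. Since the libraries are bulk samples, fewer cells with a transcript and less of it per cell cannot be told apart, here and throughout.

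**Figure D1:**
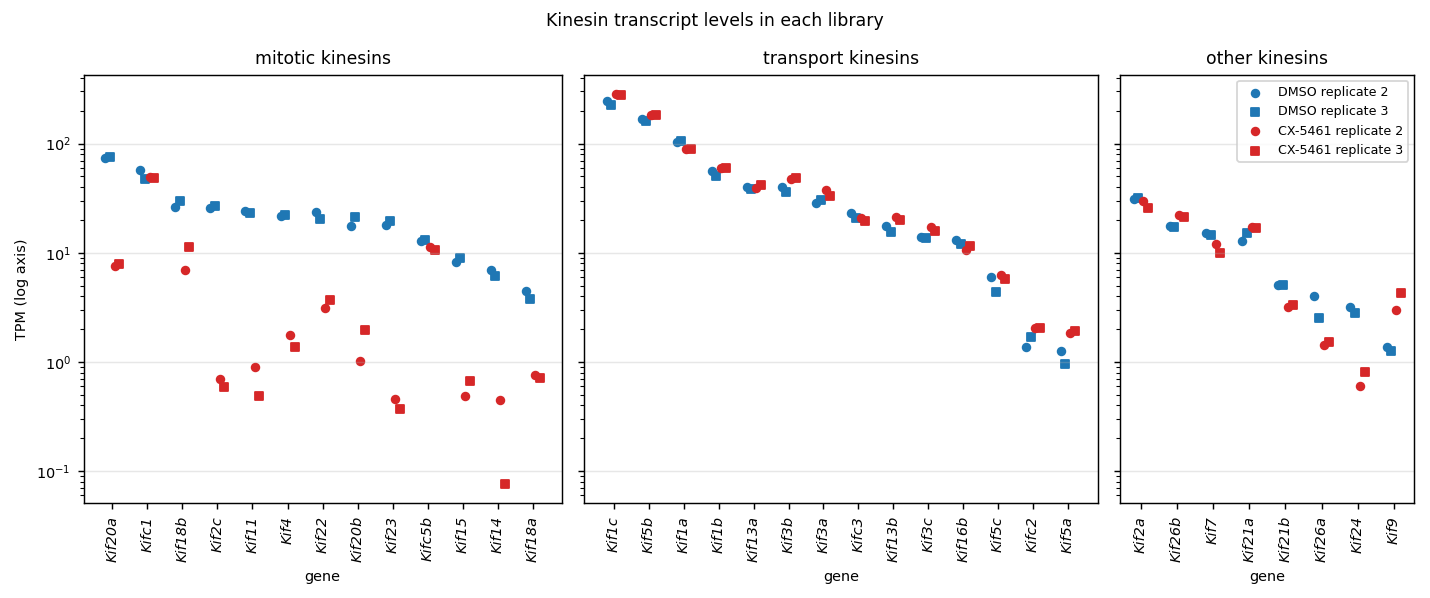
TPM on a log axis of the 35 tested kinesin genes, 1 point per library, ordered within each class by the DMSO mean. Among mitotic kinesins the CX-5461 points lie far below the DMSO points for all but Kifc1 and Kifc5b, while the transport points of both groups lie close together.

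The sequence around the start sites is shown for some of the 11 mitotic kinesins that fell. Cell cycle genes often carry a cell cycle genes homology region (CHR), with the letters TTTGAA, near the start and a CCAAT box, the letters CCAAT, upstream of it. These are known as sites through which such promoters are kept silent in resting cells and activated toward mitosis. The stretches below run 5′ to 3′ along the gene from 75 bases before to 25 bases after the RefSeq start (GRCm38.p6, the assembly of mm10). Capitals mark matches to either motif on either strand, so that a CHR on the opposite strand reads TTCAAA and a CCAAT box ATTGG. The first 7 genes fell and were chosen because a CHR match lies in this stretch, so the matches in them are no result. Of the other 4 that fell, Kif14 and Kif2c have a match farther upstream, Kif18a has none and Kif20a has no entry. Kifc1 was not called, and Kif1c is the most abundant transport kinesin.
Kif11 (chr19:37376307-37376406, plus strand): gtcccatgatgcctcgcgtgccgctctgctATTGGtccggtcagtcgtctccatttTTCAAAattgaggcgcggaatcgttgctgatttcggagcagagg
Kif15 (chr9:122951006-122951105, plus strand): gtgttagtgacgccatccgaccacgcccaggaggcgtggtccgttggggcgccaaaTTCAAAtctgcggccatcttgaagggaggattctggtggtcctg
Kif22 (chr7:127042396-127042495, minus strand): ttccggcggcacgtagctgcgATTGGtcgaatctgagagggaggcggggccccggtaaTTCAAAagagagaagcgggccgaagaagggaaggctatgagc
Kif23 (chr9:61946775-61946874, minus strand): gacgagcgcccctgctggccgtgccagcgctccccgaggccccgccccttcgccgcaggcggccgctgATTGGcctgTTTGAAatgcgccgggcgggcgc
Kif4 (chrX:100625990-100626089, plus strand): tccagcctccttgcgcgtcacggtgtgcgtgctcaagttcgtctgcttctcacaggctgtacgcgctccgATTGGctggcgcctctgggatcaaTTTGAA
Kif20b (chr19:34922283-34922382, plus strand): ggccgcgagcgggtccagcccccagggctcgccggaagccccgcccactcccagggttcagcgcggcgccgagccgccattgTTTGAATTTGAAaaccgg
Kif18b (chr11:102925100-102925199, minus strand): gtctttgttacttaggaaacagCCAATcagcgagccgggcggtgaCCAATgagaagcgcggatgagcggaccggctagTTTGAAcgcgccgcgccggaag
Kifc1 (chr17:33890609-33890708, minus strand): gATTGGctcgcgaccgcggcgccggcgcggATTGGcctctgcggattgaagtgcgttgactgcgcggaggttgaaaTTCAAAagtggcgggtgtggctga
Kif1c (chr11:70700473-70700572, plus strand): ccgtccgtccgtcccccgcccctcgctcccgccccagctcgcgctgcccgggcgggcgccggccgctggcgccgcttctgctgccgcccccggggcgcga
The stretch of Kif20b holds 2 CHR matches in tandem, and in that of Kif18b the match follows 2 CCAAT boxes. The stretch of Kifc1, which was not called, also holds a match, at its start, with 2 CCAAT boxes before it. That of Kif1c holds neither motif.

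Over the whole window of 250 bases before to 50 bases after the start, 11 of the 12 mitotic kinesins with a RefSeq entry had a CHR match (91.7% of windows), against 17.9% of all 32851 promoter windows. Of the 12 transport windows, from 10 genes, 1 had a match (8.33%), at 1 of the 2 starts of Kif1a, and of 13 windows of other kinesins 2 had one (15.4%). CCAAT boxes were found in 66.7% of mitotic, 33.3% of transport and 37.4% of all windows. Kif18a, which fell, had neither motif in its window, whereas Kifc1 and Kifc5b, which were not called, had both. In Kif2c the match lay 103 bases before the start, farther than in most, and in Kif14 at 228 bases. Kif24, lower outside the mitotic class, had 4 CCAAT boxes and no CHR match. A match is a description of the letters in the window and not evidence of binding, and binding was not measured.

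**Figure D2:**
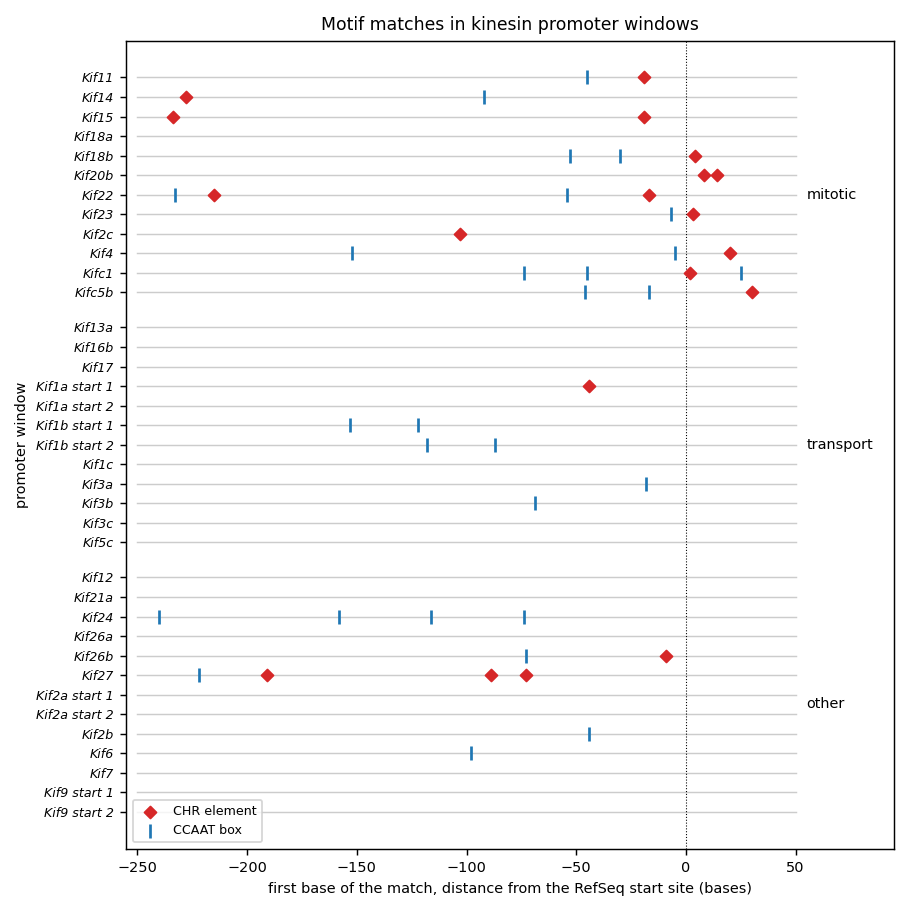
Each grey line is a RefSeq promoter window of a kinesin gene from 250 bases before to 50 after the start site, with red diamonds at CHR matches and blue ticks at CCAAT boxes on either strand. CHR matches occur in 11 of 12 mitotic windows and in 1 of 12 transport windows.

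Motors that set up and hold the bipolar spindle fell to a few percent of their DMSO level. Kif11, the kinesin-5 that slides antiparallel microtubules apart and separates the spindle poles (chromosome 19, 37376403 to 37421859, mm10, plus strand), stood at 24.0 and 22.9 TPM with DMSO and at 0.901 and 0.492 TPM with CX-5461. Both CX-5461 libraries were far below both DMSO libraries, and the log2 difference was -3.86 ± 0.179 (SE, n = 2 per group, limma adjusted p = 0.000359). In recovered fragments, Kif11 had 1844 and 1979 with DMSO and 69 and 37 with CX-5461. Kif15, the kinesin-12 that can keep a spindle bipolar beside Kif11, stood at 8.17 and 9.04 TPM with DMSO and at 0.486 and 0.675 TPM with CX-5461 (log2 difference -2.60 ± 0.189, adjusted p = 0.00112, and -3.95 with voom on recovered reads). The CX-5461 mean was 2.96% of the DMSO mean for Kif11 and 6.75% for Kif15.

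Motors that act on chromosomes and kinetochores fell as well. Kif2c, the kinesin-13 that removes tubulin from microtubule ends and corrects faulty kinetochore attachments (chromosome 4, 117159639 to 117182639, minus strand), stood at 25.8 and 26.9 TPM with DMSO and at 0.692 and 0.591 TPM with CX-5461. The difference was -4.06 ± 0.146 (limma adjusted p = 0.000262), and it rested on 1159 and 1357 fragments against 31 and 26. Which kinesin differed most depended on the scale, since Kif23 passed Kif2c with a pseudocount of 0.1 (-5.20 against -5.16) and with voom (-5.54 against -5.40). Kif4, a chromokinesin that shapes condensed chromosomes and the central spindle (chromosome X, 100625737 to 100727214, plus strand), stood at 21.8 and 22.4 TPM with DMSO and at 1.77 and 1.38 TPM with CX-5461 (-3.17 ± 0.151, adjusted p = 0.000395). Kif22, a chromokinesin that pushes chromosome arms toward the spindle equator, stood at 23.7 and 20.5 TPM with DMSO and at 3.14 and 3.72 TPM with CX-5461 (-2.38 ± 0.148, adjusted p = 0.000729). The groups lay well apart for all of these.

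Of the 4 kinesin-8 genes, Kif18a and Kif18b were tested and both fell. Kif18b, which controls the length of astral microtubules, stood at 26.5 and 30.1 TPM with DMSO and at 6.96 and 11.2 TPM with CX-5461, so its CX-5461 libraries differed from each other more than those of most members (log2 difference -1.57 ± 0.220, limma adjusted p = 0.00869). Kif18a, which dampens chromosome oscillation at the metaphase plate, stood at 4.46 and 3.79 TPM with DMSO and at 0.753 and 0.716 TPM with CX-5461 (-1.56 ± 0.211, adjusted p = 0.00676). Its level is low enough for this scale to shrink the difference, which voom on recovered reads gave as -2.53 (adjusted p = 1.16e-06). The CX-5461 mean was 17.8% of the DMSO mean against 32.2% for Kif18b. The Kif18b call ended without DMSO replicate 3 (adjusted p = 0.0600) and the Kif18a call without CX-5461 replicate 2 (0.0502) or replicate 3 (0.0569), with the differences hardly moved, at -1.48, -1.57 and -1.54.

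Motors of cytokinesis, the last step of division, made up the remaining falls. Kif23, which forms the centralspindlin complex with Racgap1 (chromosome 9, 61915905 to 61946774, minus strand), stood at 17.95 and 19.37 TPM with DMSO and at 0.456 and 0.370 TPM with CX-5461. Its CX-5461 mean of 2.21% of the DMSO mean was the lowest share of any kinesin tested (log2 difference -3.80 ± 0.161, limma adjusted p = 0.000299). Kif20a, which carries the chromosomal passenger complex to the spindle midzone, was the most abundant mitotic kinesin in DMSO, at 74.0 and 75.1 TPM, and stood at 7.57 and 7.82 TPM with CX-5461 (-3.12 ± 0.0924, adjusted p = 0.000177). Kif20b, a kinesin-6 needed for midbody formation and abscission, stood at 17.4 and 21.2 TPM with DMSO and at 1.02 and 1.97 TPM with CX-5461 (-3.05 ± 0.229, adjusted p = 0.00128). Kif14, which works with citron kinase at the midbody, stood at 6.97 and 6.15 TPM with DMSO and at 0.451 and 0.0766 TPM with CX-5461 (-2.59 ± 0.241, adjusted p = 0.00224). The lower of those Kif14 values rested on 8 fragments, and voom on recovered reads gave a difference of -5.14. Kif20a shares 1271 exon bases with Cdc23 on the opposite strand and Kif4 shares 832 with Pdzd11, and the sources used here do not say whether reads were counted by strand. Cdc23, at 30.6 to 37.2 TPM, and Pdzd11, at 39.0 to 44.6 TPM, were not called, and their part in the Kif20a and Kif4 values was not tested.

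Kifc1 and its close copy Kifc5b, the kinesin-14 motors that walk toward microtubule minus ends and focus spindle poles, were not called. Kifc1 (chromosome 17, 33875659 to 33890661, minus strand) stood at 57.2 and 47.9 TPM with DMSO and at 49.9 and 48.7 TPM with CX-5461. The groups overlapped, and the difference of -0.08 ± 0.112 did not pass (limma adjusted p = 0.625, 95% confidence interval -0.36 to 0.19). Kifc5b (chromosome 17, 26917091 to 26932583, plus strand) stood at 12.7 and 13.1 TPM with DMSO and at 11.3 and 10.5 TPM with CX-5461 (-0.22 ± 0.117, adjusted p = 0.233, interval -0.51 to 0.07). Both CX-5461 values of Kifc5b were below both DMSO values, but by less than the test could separate from the spread. The intervals of the other 11 mitotic kinesins all ended at or below -1.02, so none of them reached the intervals of this pair.

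Reads of the pair could be exchanged by the counting. Of the distinct stretches of 150 bases in Kifc1 transcripts, 7.35% also occur in Kifc5b transcripts, and of stretches of 50 bases 38.6% do, and both genes had fractional recovered reads. Exchanged reads would move the sum of the pair less than either gene, as their exon lengths are near (3414 and 3700 bases). Whether shared reads were dropped is not given in the sources used here. The sum was 69.9 and 61.0 TPM with DMSO and 61.2 and 59.2 TPM with CX-5461. The pair made up 21.8% and 19.1% of all mitotic kinesin TPM with DMSO, and 71.7% and 67.1% with CX-5461. Kifc5c-ps, a pseudogene of the same group, was listed at 0 in every library, as were Kif4-ps, Kif22-ps and the antisense gene Kif16bos.

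**Figure D3:**
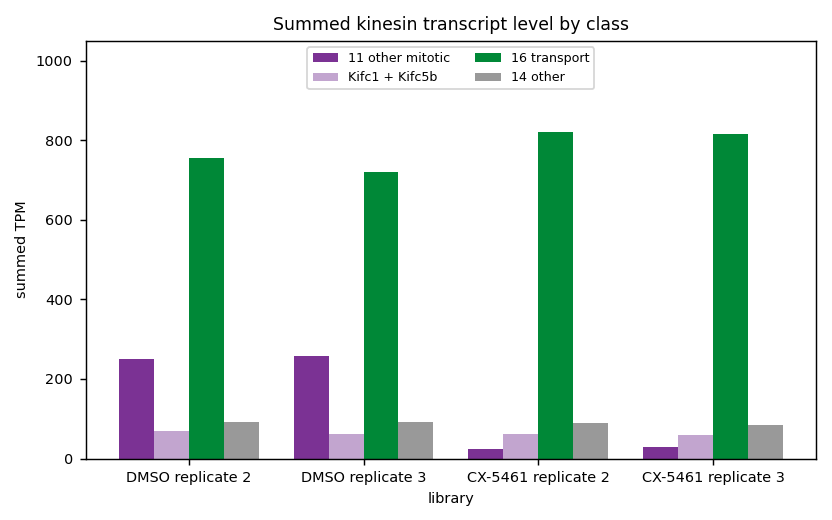
Bars give the summed TPM of each kinesin class in each of the 4 libraries, with the mitotic class split into the Kifc1 and Kifc5b pair and the other 11 genes. The 11 genes summed to 251 and 257 TPM with DMSO and to 24.2 and 29.1 TPM with CX-5461, while the pair and the transport class stayed at similar heights.

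Genes that mark cycling cells moved with the mitotic kinesins. Of 10 such markers, 10 were called lower, all also with each library left out in turn, and their summed level was 718 to 760 TPM in the DMSO libraries and 86.5 to 94.8 TPM in the CX-5461 libraries. Over all genes tested, 8.21% were called lower. The part of these markers in the result was not tested. Proteins that work with the mitotic kinesins, from a list chosen for that role with earlier results of these data known, went the same way. Of 16, 15 were called lower, against 8.21% of all genes tested, and 1 higher, against 11.6%. Their median log2 difference was -3.21. Cenpe, a kinetochore motor of the kinesin superfamily named outside the Kif series, stood at 31.4 and 31.1 TPM with DMSO and at 2.11 and 1.82 TPM with CX-5461 (limma adjusted p = 0.000262). Tpx2, which targets Kif11 and Kif15 to the spindle, stood at 82.5 and 77.2 TPM with DMSO and at 6.92 and 6.19 TPM with CX-5461 (adjusted p = 0.000177). Prc1, the microtubule bundler that recruits Kif4, fell by 3.57 on the log2 scale (adjusted p = 0.000236), and Hmmr, a spindle pole protein, fell by 3.46 (adjusted p = 0.000262). Gtse1, which stabilizes microtubules by restraining Kif2c and is also described as a p53 target, was the member that was higher, at 140 and 132 TPM with DMSO and 194 and 202 TPM with CX-5461 (0.54, adjusted p = 0.00990). That call ended without CX-5461 replicate 2 (adjusted p = 0.101) or replicate 3 (0.140).

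Transport kinesins were the more abundant set and their levels stayed near those of the controls. Summed over the 16, TPM came to 755 and 720 with DMSO and to 821 and 815 with CX-5461. They made up 64.7% and 63.7% of all kinesin TPM with DMSO, and 82.4% and 82.5% with CX-5461. Kif1c, a kinesin-3 of Golgi and vesicle traffic, was the highest kinesin, at 243 and 228 TPM with DMSO and 284 and 281 TPM with CX-5461. Its groups lay apart, but the difference of 0.26 ± 0.0805 did not pass (limma adjusted p = 0.0733, interval 0.06 to 0.46). Kif5b, the widely expressed heavy chain of conventional kinesin, stood at 167 and 163 TPM with DMSO and at 182 and 183 TPM with CX-5461 (0.15, adjusted p = 0.236, interval -0.05 to 0.34). Its neuronal relatives were far lower, with Kif5c at 4.40 to 6.21 TPM and Kif5a at 0.953 to 1.91 TPM over the 4 libraries, and neither passed (0.19 and 0.46, adjusted p = 0.504 and 0.218).

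Kif1a, the kinesin-3 best known for carrying synaptic vesicle precursors in axons, was the third highest kinesin, at 103 and 105 TPM with DMSO and 90.04 and 88.80 TPM with CX-5461. Both CX-5461 libraries were lower, and the difference of -0.21 ± 0.0790 did not pass (limma adjusted p = 0.114, interval -0.41 to -0.02). Of 12 neuron markers, 7 were tested and none was called in limma. At an unadjusted p under 0.05 limma gave 2 lower, against 14.5% of all genes tested, and 1 higher, against 21.4%. The summed level of the 12 was 367 to 370 TPM with DMSO and 342 to 347 TPM with CX-5461. The neuronal genes Rbfox3, Snap25 and Elavl3 were below 0.1 TPM in every library. Other members of that list were well above, with Tubb3 at 187 to 219 TPM, Stmn2 at 68.2 to 90.8 TPM, Gap43 at 47.3 to 63.1 TPM and Map2 at 10.8 to 13.2 TPM. Their part in the Kif1a level was not tested. Kif1b, which carries mitochondria and vesicle precursors, stood at 55.9 and 50.1 TPM with DMSO and at 59.7 and 60.2 TPM with CX-5461 (0.18, adjusted p = 0.234).

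The kinesin-2 genes, whose products move cargo and build cilia by intraflagellar transport, lay higher in the CX-5461 libraries by amounts that did not pass. Kif3a stood at 28.3 and 30.3 TPM with DMSO and at 37.4 and 33.1 TPM with CX-5461, and Kif3b, its motor partner, at 40.4 and 35.7 and at 47.7 and 48.4 TPM. Kif3c, another partner of Kif3a, stood at 14.01 and 13.63 and at 17.1 and 15.9 TPM. For each of these both CX-5461 libraries lay above both DMSO libraries (differences 0.26, 0.33 and 0.24, limma adjusted p = 0.141, 0.0677 and 0.184). Kif3c shares 2617 exon bases with 1110002L01Rik on the opposite strand, which was called higher (0.72, adjusted p = 0.0157), so reads of the 2 genes cannot be told apart without strand.

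Among the other transport kinesins, Kif13a, Kif13b and Kif16b of endosome and membrane traffic stood at 38.3 to 42.0, 15.7 to 21.3 and 10.6 to 13.2 TPM over the libraries. Kif13b was higher in both CX-5461 libraries and Kif16b lower in both, while Kif13a overlapped, with differences of 0.30, -0.17 and 0.05. The minus-end motors Kifc3 and Kifc2 stood at 19.5 to 23.0 TPM and at 1.39 to 2.07 TPM (-0.11 and 0.26). Kif17 and Kif28 stayed below the filter, with highest values of 1.28 and 0.740 TPM. Over the 14 tested transport kinesins, 9 had CX-5461 libraries that all lay above the DMSO libraries, against 38.2% of all genes tested, 3 had them all below, against 26.3%, and 2 overlapped. At an unadjusted p under 0.05 limma gave 3 higher, against 21.4% of all genes tested, and 1 lower, against 14.5%. The share higher is that of the background. With voom on whole recovered reads 9 transport kinesins were tested, and 3 passed as higher and 1 as lower after adjustment. Kif1c (0.21, voom adjusted p = 0.0204), Kif3b (0.28, 0.0251) and Kif13b (0.26, 0.0405) were higher and Kif1a (-0.27, 0.00842) lower. Of the 11336 genes tested that way, 1884 were called higher and 1834 lower. Without DMSO replicate 2, Kif1c (adjusted p = 0.0371) and Kif3b (0.0421) passed as higher in limma. With quantile normalization the differences were 0.14 for Kif1c, 0.26 for Kif3b, 0.24 for Kif13b and 0.03 for Kif5b. Kif1a was then at -0.32 and passed as lower (limma adjusted p = 0.0436). Whether transport kinesins changed by these small amounts thus depended on the test and on the scaling. Changes of the size seen in the 11 mitotic genes lay outside the intervals of all 14.

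**Figure D4:**
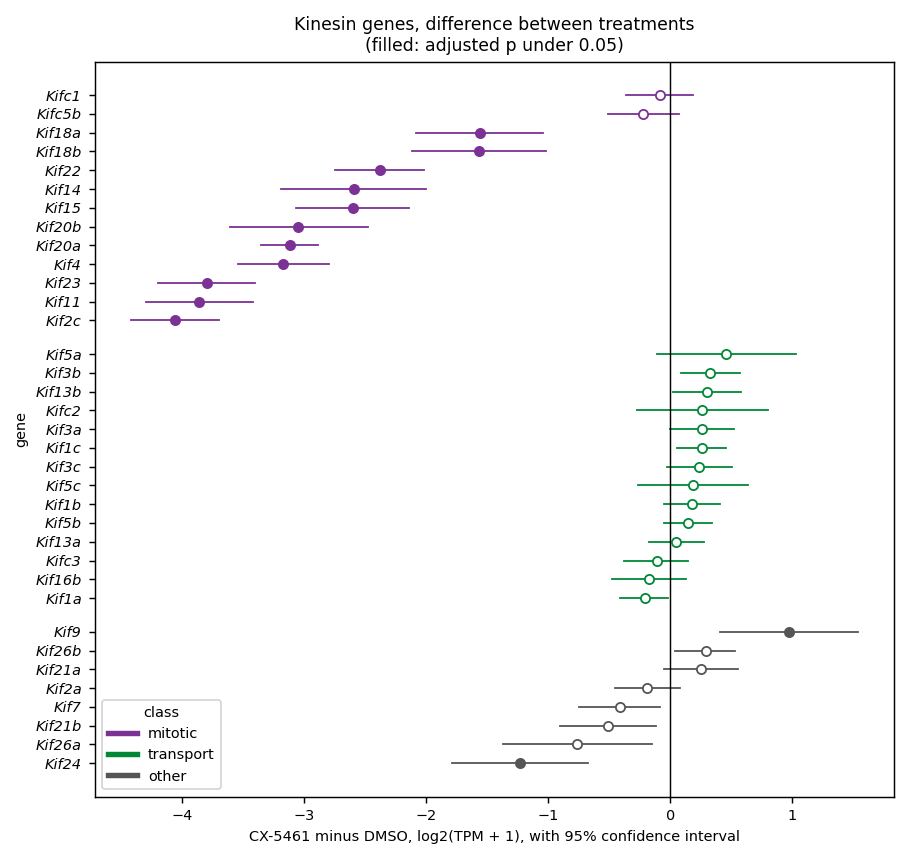
Points give the log2(TPM + 1) difference, CX-5461 less DMSO, for each of the 35 tested kinesins and lines its 95% confidence interval from limma, with filled points at an adjusted p under 0.05. The 11 filled mitotic points run from -4.06 to -1.56, while the transport points lie between -0.21 and 0.46 and are all open.

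Of 29 cargo adaptors and light chains, 27 were tested, 3 were called higher, against 11.6% of all genes tested, and 1 lower, against 8.21%, and the median log2 difference was 0.18. Arl8a, a small GTPase that links lysosomes to kinesin-1, stood at 167 and 182 TPM with DMSO and at 287 and 284 TPM with CX-5461 (0.71, limma adjusted p = 0.00469). Grip1, a scaffold of receptor cargo, stood at 1.62 and 1.43 TPM with DMSO and at 5.10 and 5.41 TPM with CX-5461 (1.31, adjusted p = 0.00726). Rab3gap1, a regulator of Rab GTPases, was higher by 0.38 (adjusted p = 0.0488), and Clstn2, a calsyntenin, was lower by a log2 difference of -0.98 (adjusted p = 0.0287). Without CX-5461 replicate 3 none of these passed (adjusted p = 0.0827, 0.0853, 0.213 and 0.135). Without CX-5461 replicate 2, Arl8a (0.0761), Grip1 (0.0660) and Rab3gap1 (0.249) did not pass, and without either DMSO library Rab3gap1 and Clstn2 did not.

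Cytoplasmic dynein and dynactin, the motor complex that moves cargo the opposite way, gave 4 higher, against 11.6% of all genes, and 0 lower of 25 tested genes in limma, with a median of 0.19. At an unadjusted p under 0.05, 9 were higher, against 21.4% of all genes, and 2 lower, against 14.5%. The dynactin genes Dctn4, Dctn3 and Dctn1 and the light chain Dynlt3 were higher by 0.41, 0.38, 0.34 and 0.36 (limma adjusted p = 0.0285, 0.0356, 0.0478 and 0.0350). With DMSO replicate 3 or either CX-5461 library left out none of the 4 passed. Markers of other cell types moved with the groups to some extent. For the counts that follow, 11.6% of all genes tested were called higher and 8.21% lower. Of 8 macrophage markers, 7 were tested and 3 were called higher (sum 608 to 620 TPM with DMSO and 888 to 992 TPM with CX-5461). Lyz2 made up most of that sum, at 528 and 508 TPM with DMSO and 775 and 855 TPM with CX-5461. For 4 of the 7 tested the groups overlapped, against 5191 of all 14621 genes tested. Of 8 keratinocyte markers, 4 were tested and 1, Sfn, was called higher (sum 81.9 to 85.7 and 92.8 to 98.1 TPM). Of the 4, 3 lay higher in both CX-5461 libraries, against 38.2% of all genes tested. Krt14 lay lower in both (26.4 and 26.9 against 10.8 and 18.4 TPM), against 26.3% of all genes tested. Trp63 and Dsg3 had highest values of 0.206 and 0.114 TPM. Of 8 muscle markers, 1, Des, was tested, and it was called higher (24.07 and 20.25 against 33.39 and 33.16 TPM). Des made up most of the sum of the 8 (23.3 to 25.6 and 33.9 to 34.4 TPM). Below the filter, Tnnt2 (0.740 and 1.29 against 0.277 and 0.0384 TPM) and Actc1 lay lower in both CX-5461 libraries. Ttn and Ryr1 lay higher in both, Myh3 overlapped, and Myod1 and Myog were at 0. Of 6 endothelial markers, 2 were tested, with Kdr called higher and Tek lower (sum 50.6 to 51.1 and 57.2 to 58.3 TPM). Pecam1 was below 0.1 TPM in every library, and Cldn5 and Cdh5 had highest values of 0.137 and 0.324 TPM. Of 10 fibroblast markers, 5 were called lower and 1 higher. Of these 13 marker calls, 12 held without DMSO replicate 2, 9 without DMSO replicate 3, 3 without CX-5461 replicate 2 and 2 without CX-5461 replicate 3. Lum, a fibroblast marker that was lower, and Kdr, an endothelial one that was higher, held throughout. The part of these markers in the small transport differences was not tested.

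The remaining kinesins were mixed. Kif24, a kinesin-13 that restrains cilium formation in cycling cells (chromosome 4, 41390745 to 41464887, minus strand), stood at 3.17 and 2.80 TPM with DMSO and at 0.598 and 0.803 TPM with CX-5461 (log2 difference -1.23 ± 0.226, limma adjusted p = 0.0180). Kif9, a kinesin-9 of motile cilia and flagella (chromosome 9, 110476958 to 110525179, plus strand), was the only kinesin called higher, at 1.38 and 1.27 TPM with DMSO and 2.97 and 4.25 TPM with CX-5461 (0.97 ± 0.228, adjusted p = 0.0356). The counts behind them were small, at 49.2 to 261 fragments for Kif24 and 61 to 184 for Kif9. Neither call held with any 1 of the 4 libraries left out (adjusted p of 0.0747 to 0.0973 for Kif24 and 0.0867 to 0.220 for Kif9), though the difference stayed between -1.32 and -1.14 and between 0.77 and 1.18. With voom on all recovered reads both passed, at -2.15 (adjusted p = 3.55e-05) and 1.36 (adjusted p = 0.00407). Of 10 markers of ciliated cells, 2 were tested and none was called in limma (0 at an unadjusted p under 0.05). Their sum was 3.75 to 5.79 TPM with DMSO and 4.12 to 4.52 TPM with CX-5461, and Dnah9, Tekt1 and Hydin were below 0.1 TPM in every library, while Rsph1 stood at 0.852 to 3.05 TPM and Ccdc39 at 1.30 to 1.81 TPM.

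Kif21b and Kif26a were lower in both CX-5461 libraries without passing in limma. Kif21b, which limits microtubule growth, stood at 5.13 and 5.03 TPM with DMSO and at 3.22 and 3.31 TPM with CX-5461 (-0.51, limma adjusted p = 0.0751), and Kif26a, an atypical kinesin, at 3.99 and 2.51 and at 1.42 and 1.53 TPM (-0.76, adjusted p = 0.0852). Kif7, a regulator of Hedgehog signalling in the cilium, stood at 15.1 and 14.7 TPM with DMSO and at 12.1 and 9.92 TPM with CX-5461 (-0.41, adjusted p = 0.0854). With voom all 3 passed as lower (-0.69, -1.15 and -0.50, adjusted p = 0.00220, 0.00502 and 0.0178), and Kif26b as higher (0.25, adjusted p = 0.0414), which limma gave as 0.29 (adjusted p = 0.0957). Kif2a, a depolymerase used both in spindles and in resting cells, stood at 31.2 and 31.7 TPM with DMSO and at 29.5 and 25.6 TPM with CX-5461 (-0.19, adjusted p = 0.265), and Kif21a at 12.9 to 17.1 TPM (0.25, adjusted p = 0.206). Kif19a, Kif6, Kif27 and Kif19b (the last listed at 0 in both DMSO libraries) lay below the filter with highest values of 0.502, 0.6926, 0.348 and 0.264 TPM, and Kif12 and Kif2b were listed at 0 in all libraries.

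Kinesin-3 and kinesin-14 each hold mitotic and transport members. Within kinesin-3, the cytokinesis motor Kif14 was at -2.59, while the tested transport members ran from -0.21 (Kif1a) to 0.30 (Kif13b). Within kinesin-14, the mitotic Kifc1 and Kifc5b were at -0.08 and -0.22 and the transport genes Kifc3 and Kifc2 at -0.11 and 0.26, none of them called. Within kinesin-4, the chromokinesin Kif4 was at -3.17, and Kif21b, Kif7 and Kif21a were at -0.51, -0.41 and 0.25. Within kinesin-13, Kif2c, Kif24 and Kif2a were at -4.06, -1.23 and -0.19. All 3 kinesin-6 genes and both tested kinesin-8 genes were called lower, against 8.21% of all genes tested. The classes were set from known roles of the proteins and the differences between members of a family were not tested as such.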

How the data were processed

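Polyadenylated RNA was sequenced as paired reads of 150 bases, per the labels' protocols. The authors deposited TPM values. The build was mm10, per the submitters' processing notes. Which aligner, counter and annotation were used is not given in the sources used here. Groups and replicate numbers came from sample titles, and 0 columns were unused.

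Tested genes had a mean of 1 TPM or more. Their log2(TPM + 1) values were fitted by limma 3.58.1 under R 4.3.3 (eBayes with trend and robust, no covariate, Benjamini-Hochberg over 14621 genes). 2 against 2 libraries cannot give an exact permutation p below 0.333. TPM times GENCODE M21 exon length fell on multiples of a unit per library. Of 71391 values, 69.3% lay within 0.01 of whole fragments and 87.4% of whole fragments or single mates. Of the 35 tested kinesins, 24 gave whole reads. limma's voom was run on these, and on all recovered values as an addition after the data were seen, as was a threshold of 0.01. Promoters came from RefSeq. Members, roles and lists were chosen with earlier results of these data known. Every symbol under the rule is accounted for, and up to 4 called members per partner list are named, with any that went against its list. The test was tried on simulated data. Python 3.11.15, numpy 2.4.6, pandas 2.3.3 and matplotlib 3.10.9 were used.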

Additional observations from a re-analysis of the deposited data

How the results depend on the processing

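The count of lower mitotic kinesins, 11, ran from 10 to 11 with 1 library left out and was within 1.5 times its value in every setting run, as was that of lower partners, 15. Lower kinesins in all numbered 12, and 10 to 11 with 1 library left out. With Kif2a and Kif2b counted as mitotic, 11 were still lower. Counts near 0 moved more. Higher kinesins in all went from 1 to 0 without the filter, with a filter of 5 TPM and at an adjusted p under 0.01, to 5 with voom on whole or on all recovered reads, and to 0 to 2 with 1 library left out. Higher transport kinesins went from 0 to 3 with either voom and to 0 to 2 with 1 library left out, and lower ones from 0 to 1 with quantile normalization and either voom. Higher adaptors went from 3 to 5 and 8 with voom on whole and on all recovered reads and to 0 to 8 with 1 library left out. Higher dynein and dynactin genes went from 4 to 0 without the filter, without limma's trend and robust options and at 0.01, to 2 with quantile normalization or a replicate block, to 9 with voom on all recovered reads, and to 0 to 6 with 1 library left out. Over all genes, the 1694 higher calls went to 1051 without the filter, 1128 without the trend and robust options, 548 at 0.01 and 237 to 2047 with 1 library left out. The 1201 lower calls went to 1834 and 2211 with voom on whole and on all recovered reads, 518 at 0.01 and 364 to 891 with 1 library left out. The cause of these moves was not tested. Kifc1 ran from -0.21 without DMSO replicate 3 to 0.04 without DMSO replicate 2. Kif13a was at -0.02 with quantile normalization, with median-of-ratios scaling and when mitochondrial and top genes were left out of the scaling, and at -0.0037 with voom on all recovered reads.

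Same-numbered libraries did not deviate together (r = 0.031 across genes), so the numbers were not treated as pairs. With a replicate block, 1589 genes were higher and 1100 lower, and 12 kinesins were lower and 1 higher.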
